A study of Mus musculus with 18 samples.

Results

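The response of WT mouse mast cells at level 60 was measured as the difference between their libraries at level 60 and at level 0. The 6 libraries concerned, of 18 in the series, were chosen by their labels alone: 3 at level 60 and 3 at level 0, each carrying one of the numbers 4120, 414 and 6110. All were bulk mRNA libraries of bone marrow-derived mast cells (BMMC), grown in culture from marrow flushed out of mouse femurs and tibias. WT cells carried loxP-flanked (flox/flox) alleles of Sirt6, which encodes a nuclear NAD-dependent deacylase, and no Cre. The groups at 60 and at 20 (3 libraries each) were labelled as treated with LPS, and the group at 0 (3 libraries) had no treatment in its labels. LPS, bacterial lipopolysaccharide, acts through the receptor TLR4, while the title of the series speaks of FcεRI, through which IgE acts. No unit is given for 0, 20 and 60. In the KO cells used for comparison (3 libraries at 60 and 3 at 0), Cre was driven by the LysM promoter, which is active in myeloid cells, on the same flox/flox background. The labels do not say whether the 3 numbers are animals or separate cultures. The p-values below therefore measure only the spread between libraries, which may be technical. In the main edgeR fit that spread was estimated over all 18 libraries, KO and level 20 included.

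Mast cells are tissue-resident immune cells that store proteases and histamine in granules. When IgE receptors or pattern-recognition receptors are engaged, calcium, MAP kinase and NF-kB signalling switch on a first wave of transcription factors and feedback inhibitors within minutes. Cytokines, chemokines and enzymes of lipid mediator synthesis follow, while inhibitors of the same pathways limit the response.

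Mast cell markers were abundant in all 6 libraries. The summed level of 15 mast cell markers ran from 20230 to 46890 CPM (counts per 1e+06, scaled to the effective library size) in the WT 60 libraries and from 18420 to 50240 CPM in the WT 0 libraries. Fcer1a, the IgE-binding chain of the receptor, had 2706, 1296 and 2605 CPM at 60 and 1142, 1268 and 2861 CPM at 0 (numbers 4120, 414 and 6110, the order used throughout). Among 16 macrophage and monocyte markers Marco was at 0 in all 6 libraries and Csf1r stayed at or under 0.636 CPM, while the summed list, mostly Cd68 and Cx3cr1, ran from 127.8 to 268.3 CPM at 60 and from 118.3 to 275.9 CPM at 0. The 16 neutrophil markers together held 3.602 to 6.70 CPM at 60 and 2.08 to 3.26 CPM at 0, with Csf3r, Elane and Retnlg at 0. The 6 basophil markers summed to 4420 to 6018 CPM at 60 and 5456 to 6086 CPM at 0, nearly all from Itga2b (4172 to 5745 CPM at 60 and 5150 to 5878 CPM at 0), while Mcpt8 stayed at or under 3.55 CPM and Prss34 at or under 0.971 CPM. Of the megakaryocyte and platelet markers, 3 are given here, chosen after their values were seen. Gp1ba ran from 97.05 to 287 CPM at 60 and from 83.54 to 335.9 CPM at 0. Vwf ran from 125.7 to 236.1 CPM at 60 and from 81.74 to 276 CPM at 0, and Ppbp was at 0 in all 6 libraries. Lyz2, the gene whose promoter drove Cre in the KO cells, had 3.005, 1.01 and 1.88 CPM at 60 and 3.69, 0.772 and 2.29 CPM at 0. Of the 11 marker lists examined, no gene passed the test at 60 against 0. Over all tested genes only 0.221% passed, so the lack of a call in such short lists is not read as stable composition. In bulk RNA, fewer cells of a kind and less RNA per cell cannot be told apart. Sirt6 itself had 9.73, 10.7 and 11.8 CPM at 60 and 12.0, 14.9 and 16.8 CPM at 0. It was narrowly lower in every library at 60 than in any at 0, as were 4.8% of all tested genes. Its mean difference was −0.43 on the log2(CPM + 0.1) scale, with an exact two-sided permutation p = 0.1, the smallest that 3 libraries against 3 can give.

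The mitochondrial share of the counts varied several-fold between these libraries. The 37 genes of the mitochondrial genome took 8.84%, 41.9% and 15.8% of all counts in the WT 60 libraries, against 39.1%, 17.8% and 11.1% in the WT 0 libraries. The share was highest in number 414 at 60 and in number 4120 at 0, so the groups overlapped over nearly their whole range. Group means were 22.2% ± 17.5 at 60 and 22.7% ± 14.6 at 0 (SD, n = 3 each). The mean log2 share differed by −0.13 between 60 and 0, with an exact two-sided permutation p = 0.8. Leaving out the library of number 4120 turned the sign, to 0.38 without the one at 60 and 0.36 without the one at 0.

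Within the numbers the share moved in different directions. It was 30.2 percentage points lower at 60 than at 0 in number 4120, a change of −2.15 on the log2 scale, and 24.2 points higher in number 414, a log2 change of 1.24. In number 6110 it was 4.70 points higher, a log2 change of 0.51. At level 20 the WT libraries held 33.8%, 6.56% and 12.2%, so number 4120 was high at 0 and 20 and low at 60, while number 414 was high at 60 alone. KO libraries held 4.47%, 34.7% and 4.29% at 60 and 10.2%, 27.2% and 4.09% at 0, and there number 414 was the highest at both levels.

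**Figure D1:**
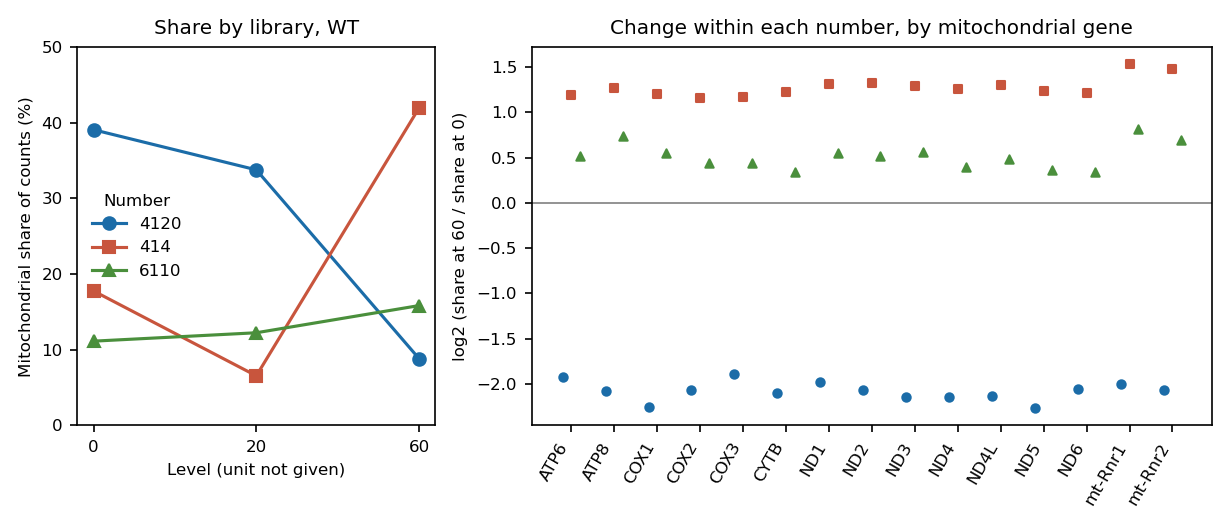
Left, mitochondrial share of counts (%) in each WT library at levels 0, 20 and 60, with a line joining the libraries of one number. Right, log2 ratio of each mitochondrial gene's share at 60 over its share at 0 within each number, for the 13 protein-coding and 2 rRNA genes: all are below 0 in number 4120 and above 0 in numbers 414 and 6110, the same order as the summed share.

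The mitochondrial transcripts moved together. COX1, a catalytic subunit of cytochrome c oxidase, was the most counted gene of every library and alone took 3.76%, 20.0% and 6.603% of counts at 60 against 17.9%, 8.71% and 4.53% at 0. CYTB, the mitochondrially encoded subunit of complex III, took 0.788%, 2.98% and 1.28% at 60 against 3.38%, 1.27% and 1.01% at 0. The large ribosomal RNA mt-Rnr2 took 0.440%, 2.34% and 0.885% at 60 against 1.84%, 0.840% and 0.546% at 0. None of the 37 genes, all of which were tested, was called in the edgeR quasi-likelihood test. Their group differences had large errors: COX1 differed by 0.10 ± 1.06 (log2, SE), and CYTB by −0.07 ± 0.98. By contrast the 35 nuclear encoded respiratory chain genes that were tested had medians of 0.48, 0.13 and −0.10 on the log2 scale within the 3 numbers, against −2.56, 1.80 and 0.65 for the 13 mitochondrially encoded ones. What the share reflects was not tested. It decides how many counts were left for other genes: 28210570, 14217428 and 30697310 at 60 and 12202368, 21470495 and 28102856 at 0, of 20026054 to 36474588 in all.

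The main fit, which paired no libraries, called a small set of genes in WT cells at 60. A fit with the replicate number as a block called 478, as given below. In the main fit 38 of 17159 genes tested (0.221%) passed an adjusted p of 0.05. It was an edgeR quasi-likelihood test with Benjamini-Hochberg adjustment, fitted to all 18 libraries. Higher at 60 were 34 genes (0.198%) and lower were 4 genes (0.0233%). The risers held a cytokine (Il13), the prostaglandin synthase Ptgs2, orphan nuclear receptors (Nr4a3 and Nr4a2), receptors (Mst1r, S1pr3 and Cd33), kinases, the nuclear IκB protein Nfkbid and the Sprouty protein Spry2. Their fold changes ran from 1.01 to 4.45 on the log2 scale. In all 38 genes the 3 libraries at 60 did not overlap the 3 at 0, and all 3 numbers had the same sign. The genes were called from these same libraries, so the lack of overlap follows largely from their selection. The shared sign follows from the lack of overlap, and neither is separate support. Over all tested genes, the libraries at 60 lay wholly above those at 0 in 929 genes (5.41%) and wholly below in 823 (4.8%). The median log2 fold change of all genes was −0.02.

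The count of calls depended on the libraries in the fit. No gene was called when only the 6 compared libraries (812 genes at an unadjusted p under 0.05) or only the WT libraries (1084 genes) were fitted, or without the WT 60 library of number 6110 (827 genes). Without a WT 0 library the count was 7 for number 4120, 1 for number 414 and 34 for number 6110, and it was 73 without the WT 60 library of number 414. Without both libraries of high mitochondrial share (number 414 at 60 and number 4120 at 0) it was 11, of which 10 were among the 38. DESeq2 called 252 genes in the same libraries, and all 38 were among them. With the replicate number as a block the count was 478, again with all 38 among them. All 38 kept their direction in each of the 17 alternative fits in which single genes were followed. Since their libraries at 60 and 0 did not overlap, their direction could hardly have turned, so this is no separate support. Library 6110 was the highest at 60 in 31 of the 34 risers, as it was in 31.9% of all genes, and it was the highest at 0 in 23 of the 34.

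**Figure D2:**
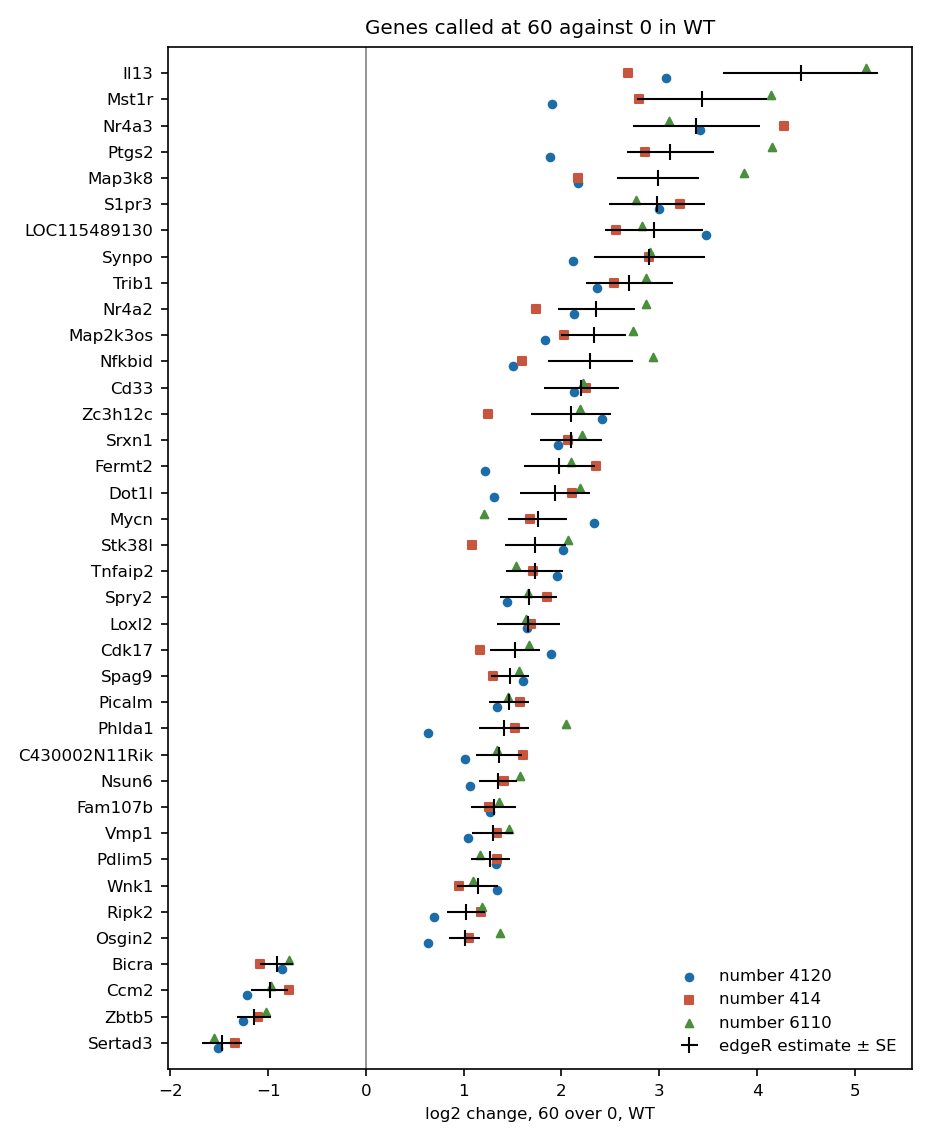
log2 change at 60 over 0 in WT cells of the 38 called genes, one row per gene. Coloured points are the change within each number (difference of log2 CPM with a prior count of 2), black ticks with bars are the edgeR estimate ± SE. Every point of the 34 upper genes lies right of 0 and every point of the 4 lowest genes lies left of it. This follows from the lack of overlap between the levels in genes called from these libraries.

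Il13 had the largest rise of the called genes. This cytokine, which drives mucus production and IgE class switching, had 5.15, 1.22 and 15.3 CPM at 60 against 0.554, 0.134 and 0.376 CPM at 0. Every library at 60 exceeded every library at 0, but the 3 values at 60 were widely spread. The log2 fold change was 4.45 ± 0.79 (SE; adjusted p = 0.028, edgeR). Ptgs2, the inducible cyclooxygenase of prostaglandin synthesis, had 6.10, 8.90 and 15.05 CPM at 60 against 1.599, 1.17 and 0.783 CPM at 0. It rose by 3.11 ± 0.45 (adjusted p = 0.00837, edgeR). Ptgs2 shared that adjusted p, the smallest of the comparison, with Map3k8, Map2k3os, Spag9, Picalm, Nsun6 and Sertad3. The lysyl oxidase Loxl2, which crosslinks collagen, had 42.7, 38.6 and 46.6 CPM at 60 against 13.5, 11.9 and 14.9 CPM at 0, a tight rise of 1.66 ± 0.32 (adjusted p = 0.043, edgeR).

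Promoter sequences are shown for Il13 and Ptgs2, the secreted cytokine and the mediator enzyme of the response, and for Nfkbid, the inhibitor described below that held the most kinds of motif searched. They are the 250 bases before the RefSeq start (GRCm38.p6), written 5′ to 3′ on the gene's strand. Il13 lies at chr11:53634703-53634952 on the minus strand, Ptgs2 at chr1:150099781-150100030 on the plus strand, and Nfkbid, at one of its 3 starts, at chr7:30422156-30422405 on the plus strand. That start of Nfkbid was chosen because it held the most kinds of motif. Capitals mark matches to the motifs searched on both strands.
Il13: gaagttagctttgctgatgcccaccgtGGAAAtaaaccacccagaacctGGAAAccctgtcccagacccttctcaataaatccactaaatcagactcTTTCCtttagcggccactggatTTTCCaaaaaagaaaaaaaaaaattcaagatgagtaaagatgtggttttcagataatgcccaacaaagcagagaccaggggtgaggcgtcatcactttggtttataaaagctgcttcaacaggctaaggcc
Ptgs2: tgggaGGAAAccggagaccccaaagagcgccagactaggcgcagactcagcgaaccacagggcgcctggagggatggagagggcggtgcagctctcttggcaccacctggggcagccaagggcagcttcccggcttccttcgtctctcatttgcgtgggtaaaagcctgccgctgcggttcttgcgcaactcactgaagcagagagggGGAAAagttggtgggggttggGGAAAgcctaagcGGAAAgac
Nfkbid: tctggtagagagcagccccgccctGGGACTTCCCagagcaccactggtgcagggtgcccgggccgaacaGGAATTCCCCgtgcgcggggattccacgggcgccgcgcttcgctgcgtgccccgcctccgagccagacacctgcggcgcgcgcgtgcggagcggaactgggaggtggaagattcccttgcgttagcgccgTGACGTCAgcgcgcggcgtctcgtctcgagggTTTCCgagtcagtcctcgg

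In the Il13 and Ptgs2 windows each capital run is the core letters GGAAA, bound by NFAT factors, on either strand: 4 matches each, at −223, −201, −153 and −131 for Il13 and at −245, −42, −21 and −8 for Ptgs2 (first base, counted from the start). At the start shown, Nfkbid held 2 matches to the NF-kB site at −226 and −181, a cAMP response element TGACGTCA at −51 and 1 GGAAA match at −19. At its other starts GGAAA was the only motif found, in a window that also takes in the 50 bases after the start. The RefSeq table held 35 promoters of 26 of the 34 risers, and here the window also takes in the 50 bases after the start. The NF-kB site was found in 3 of the 35 (8.57%), against 5.14% of all 15936 promoters of tested genes. TGACGTCA stood in 2 (5.71%, against 2.68% of all), the AP-1 letters TGANTCA in 2 (5.71%, against 5.84%), and the SRF CArG box in 1 (2.86%, against 1.28%). GGAAA, which is short, stood in 26 (74.3%, against 59.3%), and the EGR letters GCGTGGGCG in none, against 1.04% of all. Of 4 promoters of 3 falling genes, 1 held TGANTCA and 2 held GGAAA. A match to the NF-kB site can share bases with a match to GGAAA. These are counts of letters, with no test.

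Of 27 immediate early genes, 2 were called, Nr4a3 and Nr4a2, against 0.198% of all tested genes called higher. Nr4a3, an orphan nuclear receptor induced by many stimuli, had 554.5, 396.2 and 929.9 CPM at 60 against 51.9, 20.4 and 108.1 CPM at 0. The lowest library at 60 was well above the highest at 0, and the rise was 3.38 ± 0.65 (adjusted p = 0.044, edgeR). Its relative Nr4a2 had 207.8, 229.2 and 522.1 CPM at 60 against 47.6, 68.4 and 71.4 CPM at 0, a rise of 2.35 ± 0.39 (adjusted p = 0.022, edgeR). Outside that list 2 nuclear regulators rose. Mycn, a MYC family factor, had 46.5, 33.0 and 29.7 CPM at 60 against 9.16, 10.3 and 12.8 CPM at 0, a rise of 1.76 ± 0.30 (adjusted p = 0.023, edgeR). Dot1l, the histone H3 lysine methyltransferase, had 268.4, 398.1 and 583.4 CPM at 60 against 107.8, 92.0 and 127.6 CPM at 0, a rise of 1.93 ± 0.36 (adjusted p = 0.036, edgeR).

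Several called genes encode kinases, a pseudokinase or a kinase scaffold. Map3k8 (TPL2), the kinase that links TLR signalling to ERK, had 7.70, 5.83 and 18.8 CPM at 60 against 1.66, 1.24 and 1.22 CPM at 0. Its rise was 2.99 ± 0.42 (adjusted p = 0.00837, edgeR), and among the 38 genes it was called in the most alternative fits, 13 of 17. Trib1, a pseudokinase that directs proteins to degradation, had 7.27, 10.6 and 22.1 CPM at 60 against 1.35, 1.78 and 2.97 CPM at 0, a rise of 2.70. Ripk2, the kinase downstream of NOD receptors, had 49.5, 46.5 and 68.3 CPM at 60 against 30.4, 20.5 and 29.9 CPM at 0, a rise of 1.02 without overlap between the levels. Spag9, a JNK scaffold protein, had 163.5, 199.4 and 201.5 CPM at 60 against 53.8, 81.1 and 67.7 CPM at 0. Its rise of 1.48 ± 0.19 had one of the smaller errors (adjusted p = 0.00837, edgeR). The kinases Wnk1, Cdk17 and Stk38l rose by 1.14, 1.53 and 1.73. The span of Cdk17 overlaps Elk3 and that of Wnk1 overlaps Mir706, and with no strand stated their reads cannot be told apart. The same holds for S1pr3, Nr4a2, Zc3h12c, Fermt2, Loxl2, Spag9 and Bicra, each of which overlaps a noncoding or predicted gene.

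In the lists of inhibitors and targets, 2 of 22 NF-kB subunits and targets (Nfkbid and Tnfaip2) and 1 of 15 MAPK feedback inhibitors (Spry2) were called. Over all tested genes 0.198% were called higher. Nfkbid (IκBNS), a nuclear IκB protein, had 86.2, 83.5 and 320.3 CPM at 60 against 30.4, 27.6 and 41.8 CPM at 0, a rise of 2.30 ± 0.44 (adjusted p = 0.043, edgeR). At 60 the library of number 6110 was far above the other 2. Spry2, a Sprouty inhibitor of receptor tyrosine kinase signalling to ERK, had 27.4, 38.7 and 49.5 CPM at 60 against 10.0, 10.7 and 15.7 CPM at 0, a rise of 1.66 ± 0.29 (adjusted p = 0.023, edgeR). From the list of mRNA decay factors, Zc3h12c, a CCCH zinc finger protein of the Regnase family of RNases, had 71.2, 23.7 and 72.8 CPM at 60 against 13.3, 9.97 and 15.8 CPM at 0, a rise of 2.1. Tnfaip2, a gene induced by TNF, rose by 1.73. Phlda1, an apoptosis-related gene of neither list, rose by 1.41.

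Surface receptors made up another group. Mst1r (RON), the receptor of macrophage-stimulating protein, had 2.26, 4.13 and 12.7 CPM at 60 against 0.554, 0.537 and 0.657 CPM at 0, a rise of 3.44 ± 0.67 from very low levels (adjusted p = 0.046, edgeR). S1pr3, a receptor of sphingosine-1-phosphate, had 6.84, 8.05 and 13.98 CPM at 60 against 0.800, 0.806 and 2.004 CPM at 0, a rise of 2.98 ± 0.49 (adjusted p = 0.021, edgeR). Cd33, a sialic acid-binding receptor of the Siglec family, had 172.1, 193.3 and 325.2 CPM at 60 against 39.2, 40.6 and 69.9 CPM at 0. Its rise of 2.20 ± 0.38 was nearly equal in the 3 numbers (adjusted p = 0.023, edgeR).

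The other protein-coding risers had varied roles. Srxn1, the sulfiredoxin that repairs oxidised peroxiredoxins, was among the most abundant, with 1138, 808.9 and 1752 CPM at 60 against 291.2, 193.4 and 379.6 CPM at 0, a rise of 2.098 ± 0.32 (adjusted p = 0.014, edgeR). Fermt2 (kindlin-2), an activator of integrins, had 7.24, 13.98 and 17.2 CPM at 60 against 3.08, 2.69 and 3.94 CPM at 0, a rise of 1.98. Picalm, a clathrin assembly protein of endocytosis, had 439.7, 508.0 and 546.7 CPM at 60 against 173.1, 170.1 and 199.1 CPM at 0. It rose by 1.46 ± 0.21 (adjusted p = 0.00837, edgeR), and its 3 libraries at 60 lay close together. Vmp1, a membrane protein of autophagosome formation, rose by 1.30, and because its span overlaps Mir21a, reads of that precursor cannot be told apart from its own. Pdlim5, a LIM protein of the actin cytoskeleton, rose by 1.27, Nsun6, an RNA cytosine methyltransferase, by 1.35, Osgin2 by 1.01 and Fam107b by 1.31. Synpo, an actin-binding protein, rose by 2.90 but stayed at or under 3.25 CPM.

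Another 3 risers were long noncoding RNAs. LOC115489130 had 29.5, 18.7 and 44.9 CPM at 60 against 2.58, 3.12 and 6.29 CPM at 0, a rise of 2.94 ± 0.50, but its span overlaps Lamp2 and the libraries' strand is not stated, so its reads and those of Lamp2 cannot be told apart. Map2k3os rose by 2.33 and C430002N11Rik by 1.36. The 4 falling genes were Sertad3, Zbtb5, Ccm2 and Bicra. Sertad3, a SERTA domain protein, had 4.06, 5.30 and 3.73 CPM at 60 against 11.7, 13.5 and 11.1 CPM at 0, a log2 change of −1.47 ± 0.20 (adjusted p = 0.00837, edgeR). Zbtb5, a zinc finger protein, had 9.24, 9.85 and 8.31 CPM at 60 against 22.2, 21.3 and 17.0 CPM at 0, a change of −1.14 ± 0.17 (adjusted p = 0.014, edgeR). Ccm2, a scaffold of MEKK3 signalling, had 58.6, 75.3 and 67.6 CPM at 60 against 136.5, 130.0 and 132.2 CPM at 0, a change of −0.98. Bicra, a subunit of a BRD9-containing SWI/SNF complex, had 22.9, 20.4 and 21.7 CPM at 60 against 41.5, 43.3 and 37.6 CPM at 0, a change of −0.91. In all 4 the libraries within a level lay close together.

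The WT libraries at level 20 give the values between the 2 levels compared. At 60 against 20 in WT cells, 27 genes were higher (0.157% of those tested) and 49 lower (0.286%). At 20 against 0, 103 genes were higher (0.6%) and none lower, or 172 higher and 17 lower with the replicate number as a block, since numbers paired the libraries of these levels. These comparisons share the WT 60 or the WT 0 libraries with the one above, so values are given side by side and no overlap is drawn from them. All 3 libraries at 60 were above all 3 at 20 in 21 of the 34 risers and below them in 7. Over all tested genes the shares were 5.25% and 6.1%, but the risers were chosen for high values in the same libraries at 60, so nothing is read from these counts. The 4 falling genes were below their level at 20 in all 3 libraries.

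Genes that were higher at 20 included the cytokine, the cyclooxygenase and the inhibitor. Il13 had 0.554, 0.134 and 0.376 CPM at 0, then 109.2, 191.2 and 127.2 CPM at 20 and 5.15, 1.22 and 15.3 CPM at 60. Its log2 change at 60 over 20 was −4.28 (adjusted p = 0.00652, edgeR). Ptgs2 reached 97.6, 107.8 and 62.2 CPM at 20, and its change at 60 over 20 was −3.15 (adjusted p = 0.00165, edgeR). Nfkbid reached 915.2, 1549 and 1134 CPM at 20, a change of −2.88 at 60 over 20 (adjusted p = 0.00583, edgeR). Nr4a2, Map3k8, Map2k3os and Phlda1 were also lower in all 3 libraries at 60 than at 20, by 1.46, 1.44, 1.26 and 1.09 on the log2 scale, none of which was called.

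Some risers were not called at 20 against 0. Picalm had 173.1, 170.1 and 199.1 CPM at 0, then 158.3, 101.5 and 157.3 CPM at 20 and 439.7, 508.0 and 546.7 CPM at 60. Its log2 change was 1.84 at 60 over 20 (adjusted p = 0.000689, edgeR) and −0.38 at 20 over 0 (adjusted p = 0.91, edgeR). Fermt2 had 1.62, 2.35 and 3.11 CPM at 20, below its level at 0 in each number, and changed by 2.43 at 60 over 20 (adjusted p = 0.00514, edgeR). Stk38l, Nsun6, C430002N11Rik and Ripk2 changed by 1.85, 1.22, 1.46 and 1.07 at 60 over 20, each with an adjusted p under 0.05 there, and by −0.11, 0.13, −0.10 and −0.04 at 20 over 0. Nr4a3, Srxn1, Spry2 and Tnfaip2, in contrast, were called at 20 against 0, with changes of 3.10, 1.82, 1.43 and 1.61 (adjusted p = 0.0363, 0.00925, 0.0285 and 0.0131, edgeR). At 60 they differed little from their level at 20, with uncalled changes of 0.28, 0.28, 0.23 and 0.12 at 60 over 20.

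**Figure D3:**
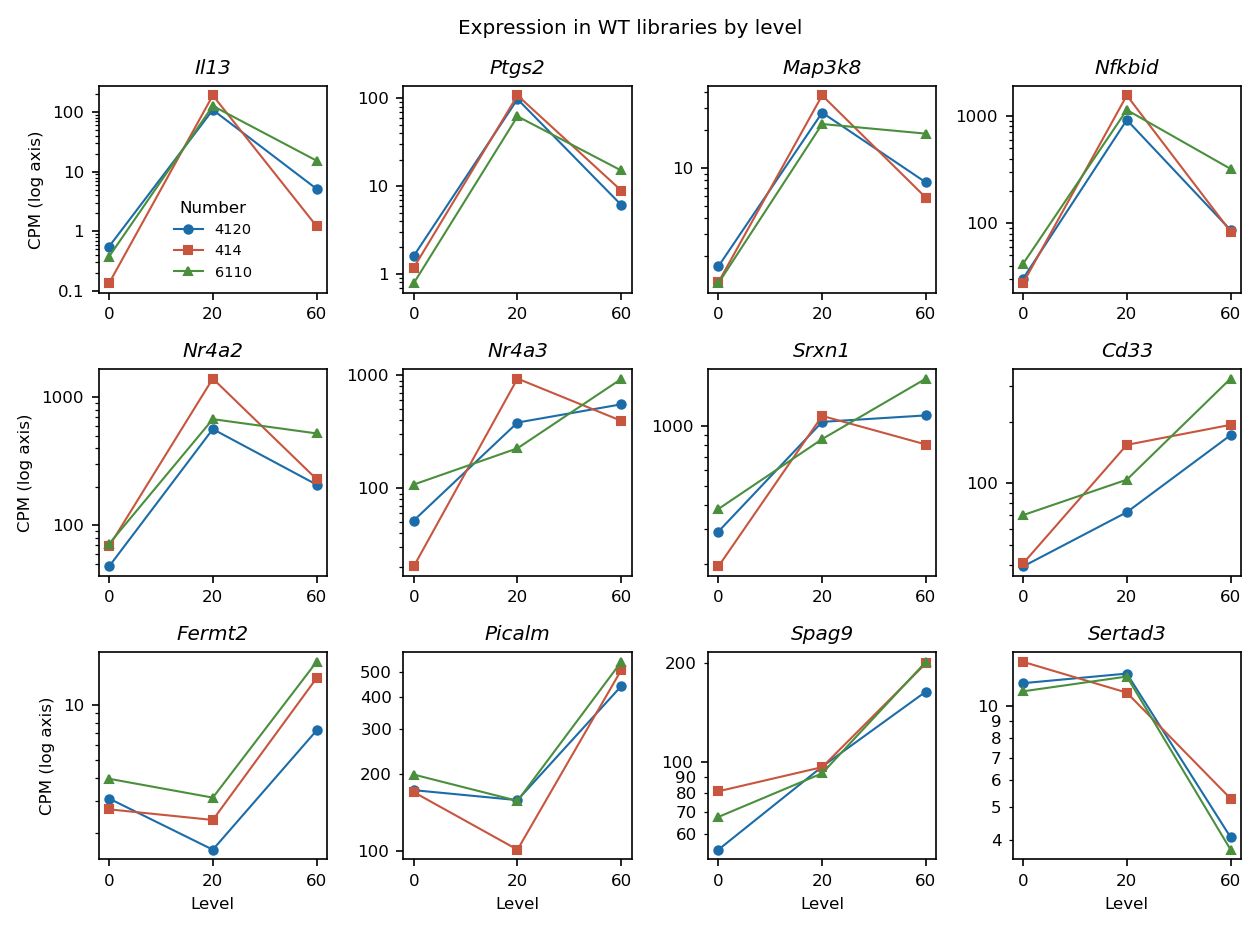
CPM (log axis, a different range in each panel) of 12 called genes in the WT libraries at levels 0, 20 and 60, with a line joining the libraries of one number. Il13, Ptgs2, Map3k8, Nfkbid and Nr4a2 peak at 20 in every number, Fermt2 and Picalm are higher at 60 than at 20 and 0 in every number, and Sertad3 is lower at 60.

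Most of these genes were also called in KO cells. In KO cells at 60 against 0, 341 genes were higher (1.99%) and 95 lower (0.554%), or 990 and 842 with the replicate number as a block, which paired the KO libraries. Of the 38 WT genes, 37 were called in KO cells in the same direction, which is 97.4% of the WT list and 8.49% of the KO list of 436. The exception was Stk38l, with 16.9 ± 4.47 CPM at 60 and 5.08 ± 1.36 CPM at 0 in WT cells, and 4.90 ± 1.83 CPM at 60 and 3.16 ± 0.322 CPM at 0 in KO cells (SD, n = 3 each). It rose by 1.73 in WT cells and differed by 0.63 ± 0.31 in KO cells (adjusted p = 0.365, edgeR). No gene had a response that differed between the genotypes at an adjusted p of 0.05 by edgeR (smallest 0.711; 188 genes at an unadjusted p under 0.05), while DESeq2 called 2.

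Among the 38 genes the change was larger in KO cells in 30 and larger in WT cells in 8. The same count was not made over all tested genes, so it is not read as a trait of these 38. Il13 rose by 4.45 ± 0.79 in WT and 6.40 ± 0.78 in KO cells, Ptgs2 by 3.11 ± 0.45 in WT and 5.12 ± 0.47 in KO cells, and Map3k8 by 2.99 ± 0.42 in WT and 5.31 ± 0.46 in KO cells (SE). Picalm rose by 1.46 ± 0.21 in WT and 1.68 ± 0.21 in KO cells, and Pdlim5 by 1.27 ± 0.20 in WT and 1.26 ± 0.20 in KO cells. For 14 of the 38 the difference between genotypes had an unadjusted p under 0.05, and none had an adjusted p under 0.05. The mitochondrial share differed between these libraries too, and its part in the difference was not tested.

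**Figure D4:**
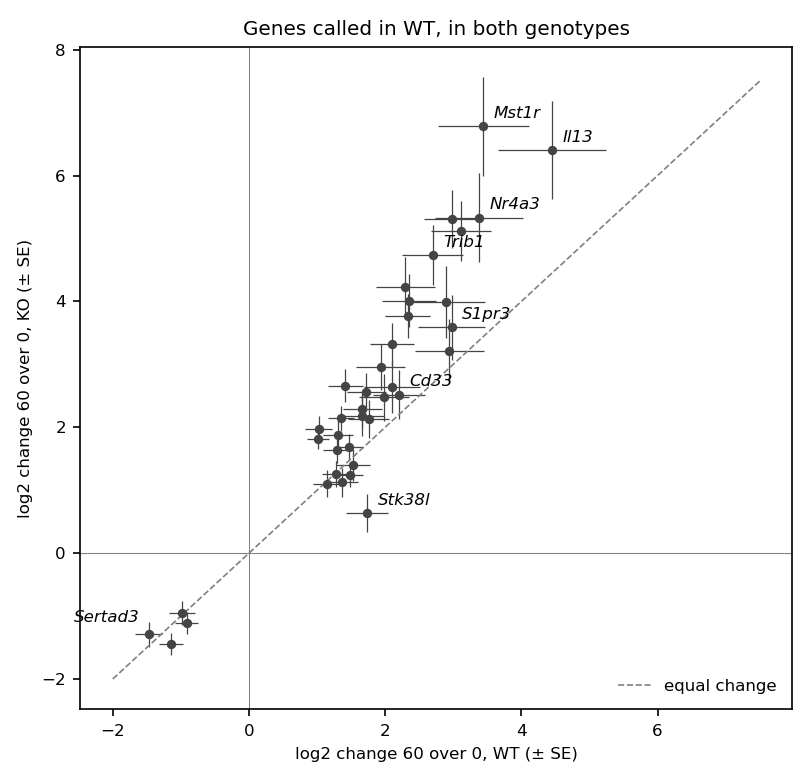
log2 change at 60 over 0 of the 38 genes called in WT cells, in WT cells (horizontal axis) and in KO cells (vertical axis), with bars of ± SE. The dashed line marks equal change: 30 of the 38 genes changed more in KO cells, a count not made over all tested genes. Stk38l, with 0.63 in KO cells, lies below the line.

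Of the 26 lists of genes examined, the ones for inducible mediators and signalling stood highest. The cytokine list had a median log2 fold change of 1.68 over 20 tested of 26 listed members, with 18 positive and 1 called (Il13). Chemokines had a median of 1.22 over 10 tested of 15 listed members, all positive and none called. A member near 0 at level 0 passed the low-count filter only if it was higher in another group. The filter thus favours positive signs in these lists. Immediate early genes had a median of 1.18 over 27 members, 26 of them positive and 2 called (Nr4a3 and Nr4a2). MAPK feedback inhibitors had a median of 1.17 over 15 members with 1 called (Spry2), and NF-kB subunits and targets 0.79 over 22 members with 2 called (Nfkbid and Tnfaip2). These compare with 0.198% of all genes called higher and a median of −0.02. The medians of these 5 lists were positive in each of the 17 alternative fits, which reuse the same libraries and are no separate support. That of the NF-kB list was 0.44 without the WT 60 library of number 6110 and 0.51 without both WT libraries of that number.

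Several list members with large or abundant signals did not pass the test. The chemokine Ccl1 had 14.7, 35.1 and 247.6 CPM at 60 against 5.17, 4.93 and 13.3 CPM at 0, a difference of 3.66 ± 0.83 (adjusted p = 0.0979, edgeR), with number 6110 far above the other 2. Ccl2, the most abundant chemokine listed, had 359.8, 145.0 and 338.5 CPM at 60 and 276.6, 97.9 and 248.4 CPM at 0, and the groups overlapped (adjusted p = 0.901, edgeR). Tnf, a central inflammatory cytokine, was chosen after its values were seen: it had 19.4, 14.5 and 68.5 CPM at 60 against 4.37, 4.26 and 10.7 CPM at 0, a difference of 2.40 ± 0.57 (adjusted p = 0.119, edgeR). From the cell cycle list, Pcna, the sliding clamp of DNA replication, had 449.5, 181.4 and 501.5 CPM at 60 against 74.4, 57.7 and 182.9 CPM at 0, overlapping between levels (1.85 ± 0.44, adjusted p = 0.12, edgeR).

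**Figure D5:**
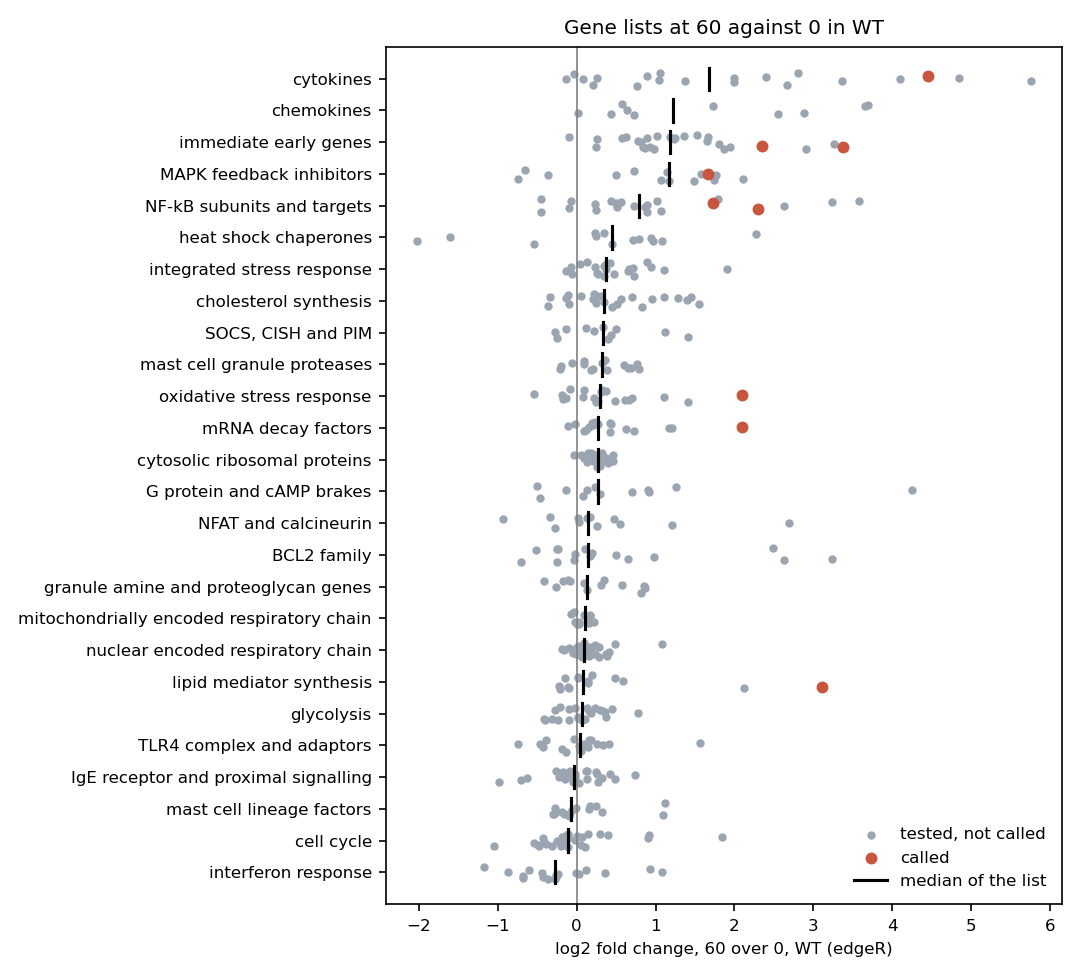
log2 fold change at 60 over 0 in WT cells (edgeR) of the tested members of 26 gene lists, one row per list, ordered by median (black bar). Called genes are large red points and the others small grey points; cytokines, chemokines, immediate early genes and MAPK feedback inhibitors have medians above 1, and the interferon list has the lowest.

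Lists for the mast cell's own equipment had small medians. Granule proteases had a median of 0.32 over 15 members, with none called. Over all tested genes 0.221% were called, so the lack of a call in lists of this size is not read as a trait of them. Cpa3, the mast cell carboxypeptidase and one of the most abundant transcripts, had 12310, 5669 and 19720 CPM at 60 and 6411, 5678 and 20660 CPM at 0, and Cma1, a chymase, had 7905, 3949 and 9936 CPM at 60 and 3863, 4486 and 10930 CPM at 0. Both overlapped between the levels, and number 6110 was the highest at each. The median was −0.03 for the IgE receptor and its proximal signalling (26 members), 0.05 for the TLR4 complex and adaptors (18) and −0.07 for the mast cell lineage factors (16), none with a call. The signs of these 3 medians changed in 6, 3 and 5 of the 17 alternative fits, and that of the granule proteases in 2. The second chain of the IgE receptor with a role in signal amplification, Ms4a2, had 1325, 1054 and 1112 CPM at 60 and 1209, 1465 and 1315 CPM at 0. Gata2, a transcription factor of the mast cell lineage, had 993.8, 913.3 and 876.5 CPM at 60 and 1228, 908.5 and 979.5 CPM at 0. Tph1, the tryptophan hydroxylase of serotonin synthesis, had 2230, 1844 and 2746 CPM at 60 and 2814, 2280 and 3059 CPM at 0. In each of these the groups overlapped. Lipid mediator synthesis had a median of 0.08 over 14 members, so Ptgs2 stood alone among them as a call.

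Stress and growth lists had medians under 0.5. Calls in them are given beside 0.221% of all tested genes called, and a list without a call is not read as unchanged. Oxidative stress genes had a median of 0.29 over 20 members with Srxn1 called, and mRNA decay factors 0.28 over 17 with Zc3h12c called. Heat shock chaperones had a median of 0.44 over 13, the integrated stress response 0.38 over 22, cholesterol synthesis 0.35 over 23, SOCS, CISH and PIM genes 0.33 over 11, and cytosolic ribosomal proteins 0.27 over 30, none with a call. The list of G protein and cAMP brakes had a median of 0.27 over 12, NFAT and calcineurin 0.15 over 12, the BCL2 family 0.14 over 16, granule amine and proteoglycan genes 0.14 over 13, nuclear encoded respiratory chain 0.09 over 35 and glycolysis 0.07 over 25. Cell cycle genes had a median of −0.11 over 28, and interferon response genes the lowest, −0.27 over 18 with 13 negative; neither list had a call. Many of these medians moved with single libraries. Glycolysis ran from −0.15 to 0.44 over the 17 alternative fits, changing sign in 4, the nuclear encoded respiratory chain from −0.06 to 0.40, changing sign in 3, and the cell cycle from −0.29 to 0.22, turning positive without the WT 0 library of number 6110. Lipid mediator synthesis (−0.05 to 0.23) and granule amine and proteoglycan genes (−0.05 to 0.53) turned negative without number 6110 at 60 or number 414 at 0. Cytosolic ribosomal proteins had a median of 0.72 without number 6110 at 0 and 0.05 without it at 60. Without number 6110 at 60 the integrated stress response had 0.105 and cholesterol synthesis 0.11. Some abundant members of these lists had higher means at 60 with overlapping groups. Nfatc1, a calcium-regulated transcription factor, had 215.8, 196.5 and 516.3 CPM at 60 and 99.2, 81.5 and 221.7 CPM at 0 (1.21 ± 0.43, adjusted p = 0.403, edgeR). Cish, an inhibitor of cytokine receptor signalling, had 159.3, 113.4 and 293.3 CPM at 60 and 75.8, 55.9 and 128.4 CPM at 0 (adjusted p = 0.407, edgeR). Rgs1, which speeds the turning off of G proteins, had 690.2, 370.4 and 1072 CPM at 60 and 438.1, 253.2 and 436.6 CPM at 0 (adjusted p = 0.423, edgeR). Hspa8, the constitutive HSP70 chaperone, had 1369, 969.0 and 1762 CPM at 60 and 805.8, 573.3 and 1119 CPM at 0 (adjusted p = 0.467, edgeR). In each of these 4 genes number 414 was the lowest at both levels. Irf3, a transcription factor of the interferon pathway, had 142.9, 139.4 and 132.5 CPM at 60 against 171.6, 181.1 and 145.5 CPM at 0, lower in every library at 60, with a difference of −0.26 ± 0.20 (adjusted p = 0.875, edgeR).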

How the data were processed

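RNA of 18 mouse BMMC libraries was sequenced from TruSeq libraries, per the labels' protocols. Per the submitters' processing notes, the build was mm10, and the tools were StringTie 2.1.3b, HISAT2 2.1.0, FastQC 0.11.7 and bcl2fastq 2.20.0. The strand is not given in the sources used here. The authors deposited a table of 45777 genes with a raw read count, an FPKM and a TPM per library, per the file headers. The deposited counts were tested, and the deposited FPKM and TPM values entered alternatives on a log2 scale with limma 3.58.1. Positions and names came from RefSeq GRCm38.p6, in which 99.8% of gene IDs were found.

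Genes were kept by filterByExpr (17159), scaled by TMM and fitted with 1 mean per group over all 18 libraries in edgeR 4.0.16 (R 4.3.3), and p-values were adjusted by Benjamini-Hochberg. SE is the log2 fold change over the root of F. The fit was also run on simulated data with independent libraries. The simulation held no link within a number and no joint change of mitochondrial genes, so it does not bear on either. Of the 6 WT libraries compared, totals ran from 20026054 to 36474588. On these raw totals, before TMM scaling, 3 counts came to 0.0822 to 0.150 CPM. The CPM values given in the text use the effective library size, so their 3-count floor differs from that range. No 2 libraries were copies. Replicate numbers paired WT 20 with 0 (correlations of deviations 0.763, 0.622 and 0.672) and KO 60 with 0 (0.333, 0.588 and 0.667). Named genes came from the 15 largest called rises and falls with a mean of at least 5 CPM, called list members, the 2 highest members of lists without a call, all mitochondrial genes, Sirt6 and Lyz2. Others called are named too. Members and lists were chosen with earlier results of these data known. Alternatives with DESeq2 1.42.0, other scalings, filters, covariates, blocks and left-out libraries were run. One was added after seeing the data.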

Additional observations from a re-analysis of the deposited data

How the results depend on the processing

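The count of 38 genes called at 60 against 0 in WT cells moved widely. It was 38 with RLE factors and with mitochondrial genes removed, 57 with upper quartile factors, 43 without a low-count filter and 36 with an absolute log2 change of at least 1. It was 252 with DESeq2, 61 with at least 1 CPM in at least 3 libraries, and 71 (65 higher) with the mitochondrial share as a covariate. It was 4 (3 higher, 1 lower) with library size only, a scaling that moved the median of all genes to −0.10. It was 0 with the compared libraries only and with WT libraries only, 0 with limma on log2(TPM + 0.1), 5 on log2(FPKM + 0.1), 1 on log2(TPM + 1), and 7 at an adjusted p under 0.01. Leaving out 1 library, or both of a number, gave 0 to 73: 0 without both of number 4120 or of 6110, and 5 without both of 414. Without the 2 libraries of highest mitochondrial share, a setting chosen after seeing the data, it was 11. The cause of these shifts was not tested.

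Numbers were not taken as paired between WT 60 and WT 0. Same-numbered deviations correlated by 0.023, 0.185 and 0.713, all positive, and number 414 at 60 correlated best with number 4120 at 0 (0.367). Over all 18 libraries the correlation within a number of a genotype was 0.447 (limma), so pairing is not excluded. With the replicate block the count was 478, with the block on the compared libraries only 89, with the block and the mitochondrial covariate 1559, and with limma-voom and the number within a genotype as a random effect 445.

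At 60 against 20 in WT cells the count of 76 was 330 with DESeq2, 585 with the replicate block and 38 to 59 with 1 library left out. At 20 against 0 the count of 103 was 203 with DESeq2, 189 with the block and 47 to 101 with 1 left out. In KO cells the count of 436 was 967 with DESeq2, 1832 with the block and 174 to 360 with 1 left out. The difference between genotypes gave 0 throughout, the block included, except 2 with DESeq2. The mitochondrial share difference of −0.13 ran from −0.74 to 0.38 with 1 library left out. It changed sign without number 4120 at 60 (0.38) or at 0 (0.36). Taken within numbers, as a replicate block, it was −0.13, the same mean by arithmetic and so no separate check. The Sirt6 difference of −0.43 was −0.40 on log2(CPM + 1). Depth limits the lowest genes: Il13 in number 414 at 0 stood just above the 3-count floor.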

Other observations

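Genes of cholesterol synthesis and protein folding were among those with separate levels or opposite signs at 60 that were not called. These genes were chosen after their values were seen. Msmo1, the sterol methyl oxidase, had 22.9, 19.1 and 37.1 CPM at 60 against 8.80, 5.87 and 12.4 CPM at 0, without overlap (1.55 ± 0.32, adjusted p = 0.056, edgeR). Hmgcs1, the synthase ahead of HMG-CoA reductase, had 22.9, 35.1 and 56.2 CPM at 60 against 10.9, 13.6 and 22.1 CPM at 0, also without overlap. Dnajb1, an HSP70 co-chaperone, had 270.2, 160.3 and 625.95 CPM at 60 against 65.1, 34.1 and 120.1 CPM at 0, while Hspa1b, an inducible HSP70 gene, had 3.61, 3.71 and 8.65 CPM at 60 against 25.2, 33.3 and 6.79 CPM at 0, with overlap between the levels. Hspa1a and Hspa1b are near-identical copies, so their reads may be split between them.

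Il33, an alarmin cytokine, had 0.20, 0.530 and 0.880 CPM at 60 against 0, 0.0671 and 0.0626 CPM at 0, with an adjusted p of 0.43 by edgeR, and its mean at 20 was 0.0305 CPM.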
